A study of Homo sapiens with 4 samples.

Results

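The genes described here encode the proteins of the mitochondrial ribosome. They were taken by name from the deposited tables: symbols that start with MRPL or MRPS and a digit, without antisense transcripts and without pseudogenes. The rule found 77 genes among 25680 rows, and it left out MRPL42P5, MRPS31P5, MRPL45P2 and MRPL23-AS1. RNA-seq was made from THP-1 cells, an established human monocytic leukaemia line, in 2 groups of 2 libraries. The shPIWIL4 group received a lentivirus with a short hairpin RNA (shRNA) against PIWIL4, and the Scrambled group the same type of vector with a scrambled hairpin. Cells of both groups were sorted 48 hours after transduction, so both carried a vector and both had been through the sorter. The labels name 1 construct against PIWIL4 and a single cell line. Groups were assigned by sample title, since the word scrambled also stands in the treatment label of the knockdown libraries. The study deals with PIWIL4, a PIWI family Argonaute protein, and genome integrity in acute myeloid leukaemia cells, and the comparison asks what happens to gene expression when PIWIL4 is knocked down.

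The mitochondrial ribosome sits in the mitochondrial matrix and makes the few proteins encoded by mitochondrial DNA, all of them subunits of the respiratory chain or of ATP synthase. Its RNAs are transcribed in the mitochondrion, whereas all its proteins are encoded in the nucleus, made on cytosolic ribosomes and imported. Some of them descend from bacterial ribosomal proteins, and others are found only in mitochondria. Proteins at the surface of the large subunit form the stalk that receives the translation factors, and others surround the tunnel through which the new chain leaves towards the inner membrane.

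Total counts per library were 50689304 and 53657246 for shPIWIL4 libraries 1 and 2, and 31458079 and 51655687 for Scrambled libraries 1 and 2. The tested genes of the mitochondrial ribosome had 258 to 10208 counts per library. PIWIL4 had 17.8 and 17.4 CPM (counts scaled to library size) in the shPIWIL4 libraries, against 38.5 and 37.2 CPM in the Scrambled libraries, a log2 fold change of -1.10 (SE 0.09). All 10 monocytic markers examined were detected, CD14 with only 56 to 124 counts per library. Among markers of other cell types, CD3E, CD3D, MS4A1, HBB, HBA1, EPCAM and ALB had 0 to 5 counts in every library, while NKG7 and PECAM1 were counted in all 4. At an adjusted p under 0.05 in edgeR's test, 2 of the 10 monocytic markers were higher in shPIWIL4, 4 lower and 4 not called. Over all tested genes 28.7% were called higher and 29.1% lower. LYZ rose by 3.62 on the log2 scale (SE 0.10) and FCGR1A by 0.28. PTPRC, MPO, CD4 and CSF1R fell by 0.94, 0.89, 0.74 and 0.49, and SPI1, CD33, CD14 and ITGAM were not called. The part of these marker differences in the results below was not tested.

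Upstream sequences are shown for the 3 genes with the largest increases and for MRPS10 as one of the 2 small subunit genes with the largest. MRPL33 is also shown, whose level was lower in both shPIWIL4 libraries but which was not called. Each runs 5′ to 3′ on the gene's own strand and ends at the base before the transcription start in the RefSeq table of build GRCh38.p14. Capitals mark letters that match a motif searched on either strand: CCGGAAG, bound by ETS factors such as GABP, GGGCGG, bound by SP1, and CCAAT, bound by NF-Y.
MRPL20, chr1:1407294-1407443, minus strand: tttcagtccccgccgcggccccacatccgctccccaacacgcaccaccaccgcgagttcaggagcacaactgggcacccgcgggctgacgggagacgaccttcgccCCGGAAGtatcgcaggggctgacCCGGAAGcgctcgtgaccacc
MRPL41, chr9:137551729-137551878, plus strand: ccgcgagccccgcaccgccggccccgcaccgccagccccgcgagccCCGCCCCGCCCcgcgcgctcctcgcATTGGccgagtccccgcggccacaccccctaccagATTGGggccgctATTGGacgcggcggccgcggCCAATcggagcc
MRPL24, chr1:156741089-156741238, minus strand: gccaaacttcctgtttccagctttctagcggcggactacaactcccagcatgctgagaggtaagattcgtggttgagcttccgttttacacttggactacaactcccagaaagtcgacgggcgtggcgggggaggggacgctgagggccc
MRPS10, chr6:42217862-42218011, minus strand: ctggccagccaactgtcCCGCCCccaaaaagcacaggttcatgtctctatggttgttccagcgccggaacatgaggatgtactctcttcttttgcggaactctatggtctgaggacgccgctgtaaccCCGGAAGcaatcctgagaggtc
MRPL33, chr2:27771569-27771718, plus strand: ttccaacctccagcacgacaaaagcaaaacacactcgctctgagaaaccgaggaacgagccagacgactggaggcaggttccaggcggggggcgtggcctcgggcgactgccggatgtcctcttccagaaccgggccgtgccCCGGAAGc

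Of the 5 sequences, 3 held the ETS letters within 44 bases of the start. MRPL20 held them at 2 places, and MRPS10 and MRPL33 at 1 each. The 150 bases of MRPL57, the only gene called lower, are not shown and held no match to any motif searched. The same holds for the 150 bases of MRPS7, whose increase was slightly larger than that of MRPS10. MRPS10 also held 1 SP1 match. MRPL41 held 4 CCAAT matches and 2 overlapping SP1 matches, and the 150 bases of MRPL24 held no match to any motif searched.

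Over the whole set, promoters of 300 bases (250 before the start and 50 after it) were matched for 68 of the 77 genes. The ETS letters occurred in 41.2% of them, against 10.3% of all 35116 promoters in the table and 17.8% of the promoters of tested genes. The letters AAGATGGCG, bound by YY1, occurred in 19.1% of the 68, against 1.75% of all promoters, and those of NRF1, GCGCATGC, in 8.82%, against 3.05%. GGGCGG was found in 60.3% of the 68 and 45.0% of all promoters, and CCAAT in 29.4% and 34.6%. In promoters of tested genes the shares were 3.64% for the YY1 letters, 5.16% for NRF1, 66.8% for GGGCGG and 36.1% for CCAAT. ETS, YY1 and NRF1 letters were thus more frequent than in all promoters and in those of tested genes. They stood in 28, 13 and 6 of the 68 promoters, so the share for NRF1 rests on few genes. The response of genes with and without a motif was not compared by a test. The median log2 fold change was 0.35 for the 28 tested genes with the ETS letters and 0.35 for the 39 without them, with 19 of the 28 and 21 of the 39 called higher. For the YY1 letters it was 0.37 for 12 genes with them and 0.35 for 55 without, and for the NRF1 letters 0.27 for 5 genes with them and 0.36 for 62 without. A match of letters is a description and shows no binding.

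The genes of the mitochondrial ribosome were, as a set, modestly higher in the shPIWIL4 libraries. Of 76 genes tested, 45 rose and 1, MRPL57, fell at an adjusted p under 0.05 in edgeR's quasi-likelihood test, and 30 did not pass. In all tested genes 28.7% were called higher and 29.1% lower, so 45 of 76 higher (59.2%) lies above that background and 1 of 76 lower (1.32%) below it. The median log2 fold change was 0.35, against -0.00345 over all 16108 tested genes, and 70 of the 76 values were positive. Only 2 genes, MRPL20 and MRPL41, were called with a rise of at least 2-fold, against 4.79% of all tested genes, so most of the rises were small. Of the 45, 30 were called higher in all 17 settings tried, and MRPL36 and MRPS18C were called in the fewest, 5 each.

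The same was seen library by library. Together the 77 genes took 0.360% and 0.369% of all counts in the shPIWIL4 libraries and 0.293% and 0.286% in the Scrambled libraries, and their summed TPM (a length-scaled level, as deposited) was 5860 and 5984 in shPIWIL4 and 4371 and 4313 in Scrambled. For 61 genes both shPIWIL4 libraries lay above both Scrambled libraries and for 4 genes below them, while 11 overlapped. Among all tested genes 39.1% lay above and 39.5% below. In bulk RNA a change in the make-up of the cells and a change in RNA per cell cannot be told apart. Shares of counts, CPM and TPM are all relative to the other genes. The cytosolic ribosomal protein genes had a summed TPM of 171354 and 179410 in shPIWIL4 and 287207 and 274098 in Scrambled. Their part in the TPM of the set was not tested. With upper-quartile scaling, which lowers the median of all tested genes to -0.12, 35 rose and 3 fell, and over all genes the split of calls was 3446 higher and 5717 lower, against 4618 and 4683 with TMM.

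**Figure D1:**
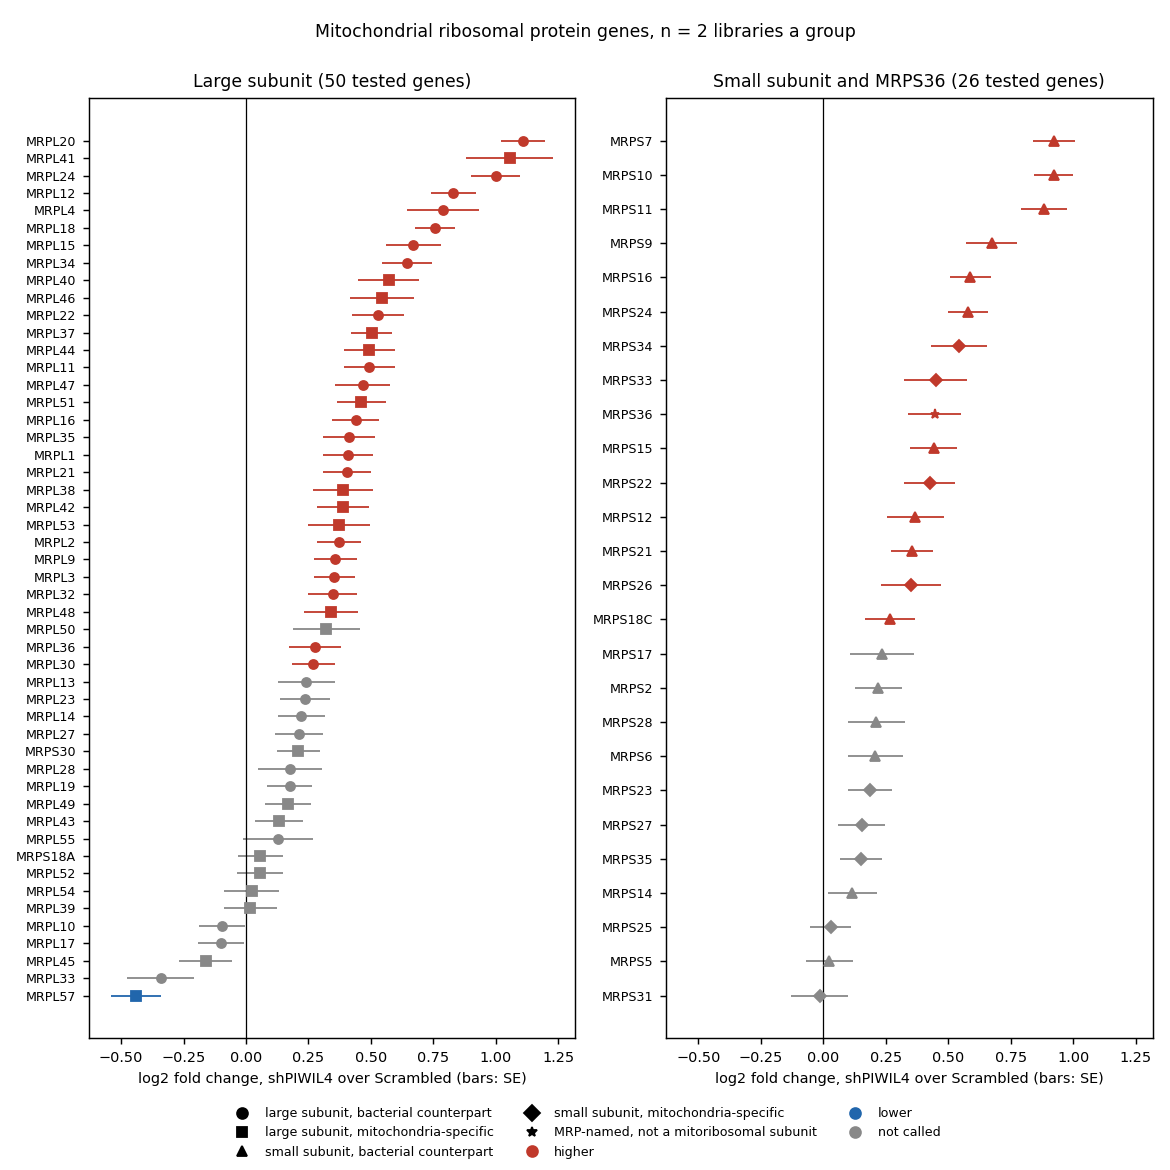
Log2 fold change of each tested gene, shPIWIL4 over Scrambled, with its standard error as bars; the x axis is the log2 fold change and the rows are genes, large subunit at the left and small subunit with MRPS36 at the right. Marker shape gives the class and colour the call; most points lie right of 0, MRPL20 highest at 1.11 and MRPL57 lowest at -0.44.

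Both subunits shifted by similar amounts. Where none of a group of genes is given as lower in edgeR's test here and below, DESeq2 and edgeR at an unadjusted p under 0.05 also gave 0 lower, except MRPL33 in the large subunit proteins with a bacterial counterpart and ATP5G2 in the respiratory chain, which both gave as lower. Of 50 genes of the large subunit 30 rose and 1 fell, with a median log2 fold change of 0.36. Of 25 tested genes of the small subunit 14 rose and none fell, with a median of 0.35. The shares called over all tested genes, 28.7% higher and 29.1% lower, are the background for each list here and below. MRPS18A and MRPS30 are counted with the large subunit, where their proteins sit despite their names. The ratio of the summed TPM of the large to the small subunit was 2.04 in each of the 4 libraries.

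Large subunit proteins with a bacterial counterpart held 4 of the 8 largest increases. Of these 30 genes, 20 rose and none fell, with a median of 0.37. MRPL20, a protein whose bacterial counterpart is needed early in assembly of the large subunit, had 78.3 and 84.2 CPM in the shPIWIL4 libraries, against 39.2 and 36.3 CPM in the Scrambled libraries. Both knockdown libraries were about 2 times as high as either control, and the log2 fold change was 1.11 (SE 0.09, adjusted p 1.0e-05). MRPL24, beside the exit of the peptide tunnel, had 69.1 and 77.9 CPM in shPIWIL4 and 38.8 and 34.9 CPM in Scrambled, a log2 fold change of 1.00 (SE 0.10). MRPL18, a protein of the central protuberance, had 96.2 and 102 CPM in shPIWIL4 and 59.1 and 58.5 CPM in Scrambled, with 0.76 on the log2 scale (SE 0.08). In all 3 genes the groups were far apart and the replicates close together.

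MRPL4 behaved less evenly. This protein, which in bacteria reaches into the exit tunnel, had 47.1 and 35 CPM in shPIWIL4 libraries 1 and 2 and 21.8 and 25.5 CPM in Scrambled libraries 1 and 2, a log2 fold change of 0.79 (SE 0.14, adjusted p 0.0013). Its groups did not overlap, but the 2 shPIWIL4 libraries differed more than for the genes above. Across the 76 genes the log2 difference of shPIWIL4 library 2 minus library 1 went with GC content (Pearson r = -0.69, Spearman rho = -0.59), as it did over 15441 tested genes with a known GC content (r = -0.50, rho = -0.46). The log2 difference of Scrambled library 2 minus library 1 went the other way, with r = 0.48 and rho = 0.37 across the 76 genes. Over the 15441 genes it had r = 0.15 and rho = 0.15. Each correlation is across genes that share the same pair of libraries and is a description. GC content was 64.9% for MRPL4 and 71.9% for MRPL41, against a median of 47.4% for the 76 genes, and its part in their values was not tested gene by gene. With an offset for length and GC content, chosen after seeing the data, 49 genes rose and 3 fell, and the median was 0.32. Over all tested genes that offset gave 5307 higher and 5296 lower.

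The stalk and the tunnel rim were mixed. In the stalk, MRPL12, which meets the translation factors and also binds the mitochondrial RNA polymerase, had 90.9 and 82.0 CPM in shPIWIL4 and 46.8 and 50.5 CPM in Scrambled, with a log2 fold change of 0.83 (SE 0.09). MRPL11, at the base of the stalk, rose by 0.49 (SE 0.10), whereas MRPL10, to which MRPL12 is anchored, had 26.7 and 28.7 CPM in shPIWIL4 and 29.6 and 29.7 CPM in Scrambled and did not pass. So 2 of the 3 stalk proteins rose. Among 6 proteins at the tunnel rim, MRPL24, MRPL22 and MRPL47 rose (1.00, 0.53 and 0.47 on the log2 scale), and MRPL23, MRPL17 and MRPL45 (0.23, -0.10 and -0.16) were not called. MRPL45, which docks the ribosome to the inner membrane, overlapped between groups, at 41.3 and 48.8 CPM in shPIWIL4 and 53.3 and 47.5 CPM in Scrambled.

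MRPL33 stood at the edge of the call. This small protein of the large subunit had 31.4 and 41.4 CPM in the shPIWIL4 libraries and 49.4 and 43.1 CPM in the Scrambled libraries. Both knockdown libraries were lower than both controls, but shPIWIL4 library 2 came close to Scrambled library 2. The log2 fold change was -0.34 (SE 0.13), with an adjusted p of 0.050 that just misses the threshold, and 12 of the 17 settings tried called it lower.

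Of the 20 large subunit proteins found only in mitochondria, 10 rose and 1 fell, with a median of 0.33. MRPL41 had the second-largest increase of all. It had 21.0 and 14.2 CPM in shPIWIL4 libraries 1 and 2 and 8.12 and 8.77 CPM in the Scrambled libraries. These CPM are low, but per length its mean level was 44.2 TPM, rank 46 in the set. The groups did not overlap, and the fitted change was 1.06 (SE 0.17, adjusted p 0.0007). Without shPIWIL4 library 1 it was 0.75, and without library 2 it was 1.31.

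MRPL37, a protein of the large subunit with no bacterial relative, was among the most abundant. It had 184 and 196 CPM in shPIWIL4 and 137 and 132 CPM in Scrambled, and rose by 0.50 on the log2 scale (SE 0.08). MRPL44, related to RNase III and mutated in an infantile cardiomyopathy, had 49.3 and 56.4 CPM in shPIWIL4 and 39.5 and 35.6 CPM in Scrambled, and rose by 0.49 (SE 0.10). Both changes are less than 1.5-fold but exceed the spread between the libraries.

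The gene that fell was MRPL57, the gene once called MRP63. It had 16.5 and 15.2 CPM in the shPIWIL4 libraries and 22.2 and 20.9 CPM in the Scrambled libraries. The 2 groups were clearly separate, and the log2 fold change was -0.44 (SE 0.10, adjusted p 0.0048), or 1.36-fold lower. Its call was lost when Scrambled library 1 was left out, with -0.37 and an adjusted p of 0.068. Annotation lists 5 pseudogenes of MRPL57, and reads from near-identical copies could be shared between them, so its count is uncertain.

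**Figure D2:**
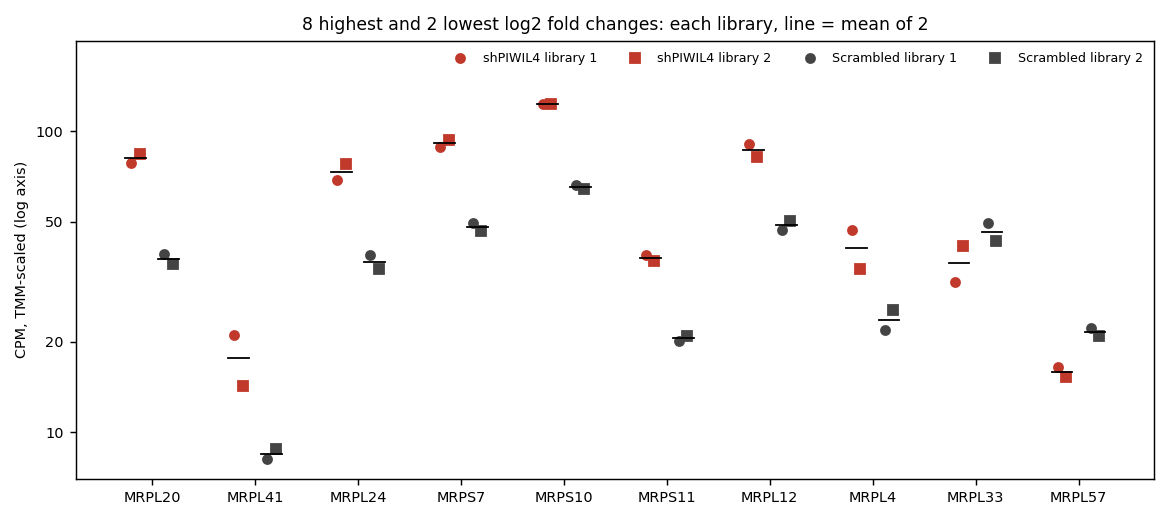
CPM (scaled by TMM, log axis) of the 8 genes with the highest and the 2 with the lowest log2 fold change in each library, shPIWIL4 in red left of Scrambled in dark grey, circles for library 1, squares for library 2 and a line for the mean of 2. The red points of MRPL20 to MRPL4 lie above the grey ones, those of MRPL33 and MRPL57 lie below, and the red points of MRPL41 (21.0 and 14.2 CPM) are the most spread.

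In the small subunit, 16 proteins have a bacterial counterpart. Of these, 10 rose and none fell, with a median of 0.36. MRPS7, which in bacteria binds the ribosomal RNA at an early step of assembly, had 88.6 and 93.8 CPM in shPIWIL4 and 49.6 and 46.7 CPM in Scrambled, a log2 fold change of 0.92 (SE 0.08). MRPS10, a protein of the head, had 123 and 124 CPM in shPIWIL4 and 66.2 and 64.3 CPM in Scrambled, also 0.92 (SE 0.08, adjusted p 1.4e-05). MRPS11, of the platform, had 38.8 and 36.9 CPM in shPIWIL4 and 20.1 and 20.9 CPM in Scrambled, with 0.88 (SE 0.09). These 3 genes were nearly identical within each group, and shPIWIL4 was 1.84 to 1.90 times as high as Scrambled.

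The small subunit proteins found only in mitochondria had the lowest median of the 4 classes, 0.19. Of 9 tested, 4 rose and none fell, and no test compared the classes. MRPS34, which stabilises the small subunit and is mutated in a form of Leigh syndrome, had 65.6 and 54.7 CPM in shPIWIL4 and 38.6 and 43.9 CPM in Scrambled, and rose by 0.54 (SE 0.11). MRPS22 rose by 0.43 (SE 0.10) and MRPS33 by 0.45 (SE 0.12), and the call of MRPS33 was lost without Scrambled library 2, with 0.35. MRPS26, the fourth, rose by 0.35, a call made in 9 of the 17 settings and lost without shPIWIL4 library 1, with 0.20, and without either Scrambled library. MRPS18B was listed at 0 in all 4 libraries and could not be tested.

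MRPS36 carries the family name, but its protein is now known as a component of the 2-oxoglutarate dehydrogenase complex of the citric acid cycle. It had 24.1 and 27.1 CPM in shPIWIL4 and 19.5 and 18.1 CPM in Scrambled, and rose by 0.45 (SE 0.10, adjusted p 0.0053). The call was lost without Scrambled library 2, with 0.39.

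The 30 genes that did not pass lay between -0.34 and 0.32 on the log2 scale. In the large subunit they were MRPL50, MRPL13, MRPL23, MRPL14, MRPL27, MRPS30, MRPL28, MRPL19, MRPL49, MRPL43, MRPL55, MRPS18A, MRPL52, MRPL54, MRPL39, MRPL10, MRPL17, MRPL45 and MRPL33. In the small subunit they were MRPS17, MRPS2, MRPS28, MRPS6, MRPS23, MRPS27, MRPS35, MRPS14, MRPS25, MRPS5 and MRPS31. Those closest to 0 included MRPS5, with 74.8 and 86.4 CPM in shPIWIL4 and 81.7 and 77.0 CPM in Scrambled, and MRPS25, with 112 and 120 CPM in shPIWIL4 and 115 and 113 CPM in Scrambled. At the other end MRPL50 had 20.3 and 23.8 CPM in shPIWIL4 and 19.8 and 15.7 CPM in Scrambled, with an adjusted p of 0.064. A value that missed the threshold does not show that the gene was the same in both groups.

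Levels between genes were compared per length, in TPM. MRPL51 was the highest, with 324 and 362 TPM in shPIWIL4 and 252 and 232 TPM in Scrambled. MRPL37 followed with 261 and 269 TPM in shPIWIL4 and 181 and 181 TPM in Scrambled, and MRPL20 with 225 and 233 TPM in shPIWIL4 and 105 and 101 TPM in Scrambled. The lowest 3 of the tested genes were MRPL43, MRPL57 and MRPL19, with means over the 4 libraries of 15.6, 14.3 and 10.7 TPM. The proteins occur once each in a ribosome apart from the stalk protein MRPL12, yet the mean levels of the tested transcripts ranged from 10.7 to 292 TPM. MRPS18B was listed at 0. The reason was not tested, and the value does not show that the gene was silent. Across the 76 genes log2 TPM and the log2 fold change were weakly related (r = 0.27, rho = 0.22).

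**Figure D3:**
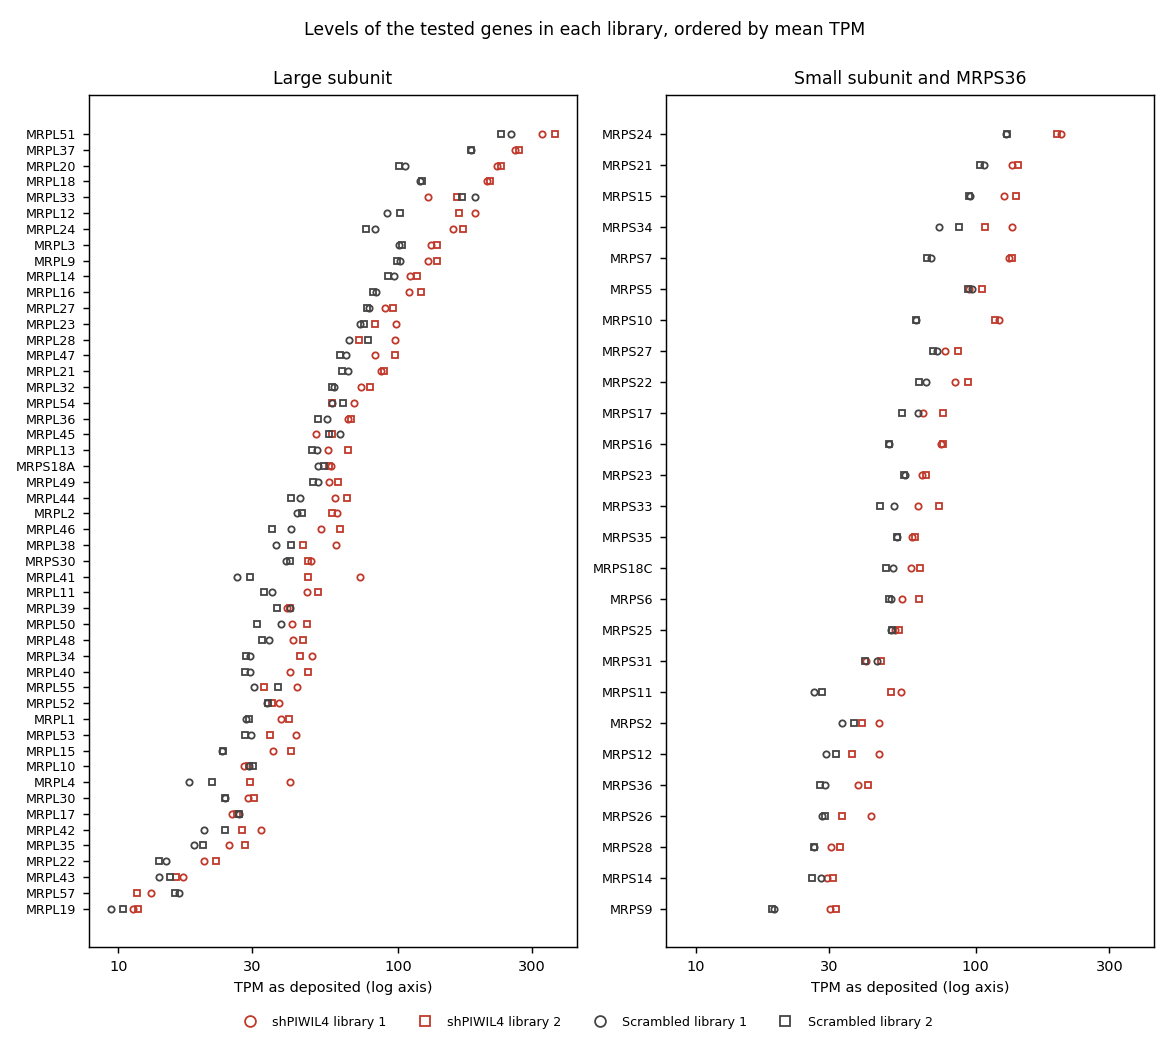
TPM as deposited (log axis) of each tested gene in each library, rows ordered by mean TPM, large subunit at the left and small subunit with MRPS36 at the right; red markers are shPIWIL4 and dark grey markers Scrambled, circles library 1 and squares library 2. Red markers lie right of grey ones for most genes at every level, from MRPL51 with a mean of 292 TPM to MRPL19 with 10.7 TPM; MRPL33, MRPL57, MRPL10 and MRPL17 run the other way.

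The transcripts of these genes are short. Their median length, recovered from the deposited FPKM values, was 1312 bases, against 2952 over all tested genes, and 58 of the 76 were at most 1825 bases long, as were 4029 of all tested genes. Among genes of that length the median log2 fold change was 0.37 for the 58 and 0.02 for all tested genes. It was lower, 0.15, for 12 genes of the set with 1826 to 2952 bases, against 0.01 for all tested genes of that length. The 5 genes of 2953 to 4638 bases had a median of 0.39, and the longest gene, MRPL19, was at 0.17. With an offset for length, 43 rose and 2 fell, and over all tested genes 4646 rose and 4630 fell.

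Genes whose mutation causes combined oxidative phosphorylation deficiency, a group of severe inherited disorders of mitochondrial translation, followed the set. Of 12 such genes 7 rose (58.3%, against 28.7% of all tested genes) and none fell, with a median of 0.39. MRPS7, MRPL12 and MRPS16 had the smallest p among them. MRPS16, in which a mutation was linked to a fatal neonatal disease, had 94.4 and 99.5 CPM in shPIWIL4 and 65.4 and 63.5 CPM in Scrambled, a log2 fold change of 0.59 (SE 0.08).

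Some of the genes share a start region with a gene on the other strand. In the GENCODE annotation, 22 of the 77 had such a divergent neighbour within 1000 bases. The pair of MRPS11 and MRPL46, whose starts lie 34 bases apart, joins a small and a large subunit gene, and both rose, by 0.88 and 0.54. For the other 20, the neighbour was no member of the set. Of these neighbours 8 rose, 3 fell and 9 did not pass, with a median of 0.21, while 10 of the 20 members rose, with a median of 0.27. Over all tested genes 28.7% were called higher and 29.1% lower, and neighbours were not compared with that share by a test.

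Several neighbours moved against or beyond their partner. SKA3, a kinetochore protein gene 43 bases from MRPL57, had 58.9 ± 5.1 CPM in shPIWIL4 and 34.1 ± 0.59 CPM in Scrambled (SD, n = 2 each), a log2 fold change of 0.79, against -0.44 for MRPL57. PNPLA7, a lysophospholipase gene 665 bases from MRPL41, fell by 1.29, with 10.2 ± 3.0 CPM in shPIWIL4 and 24.8 ± 4.7 CPM in Scrambled, whereas MRPL41 rose by 1.06. NDUFS6, a complex I subunit gene 34 bases from MRPL36, rose by 1.24, against 0.28 for MRPL36, whose call was made in only 5 of the 17 settings. For 30 of the 77 genes an exon overlapped an exon of another gene, 23 of them on the other strand, and 34 have annotated pseudogenes. The strand setting of the counting is not given in the sources used here, so reads could not be separated there. Among the 26 tested genes with neither, 15 rose, with a median of 0.37, and 28.7% of all tested genes were called higher.

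**Figure D4:**
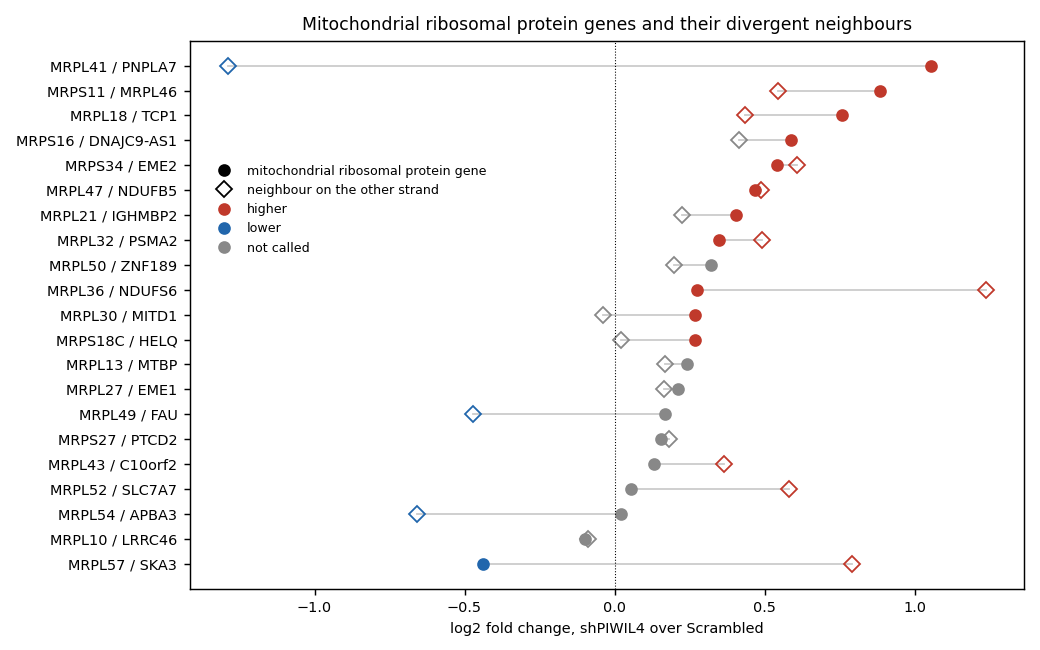
Log2 fold change, shPIWIL4 over Scrambled, of each gene with a divergent neighbour within 1000 bases (filled circles) and of the neighbour (open diamonds), 1 row a pair and coloured by call. MRPS11 and MRPL46 rose together, while MRPL41 with PNPLA7 and MRPL57 with SKA3 lie on opposite sides of 0.

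Mitoribosomal proteins with other names were looked at beside the set. Of 6 tested, 3 rose and none fell, with a median of 0.33. DAP3, a GTP-binding protein of the small subunit, had 267 and 316 CPM in shPIWIL4 and 213 and 201 CPM in Scrambled, and rose by 0.50 (SE 0.10). AURKAIP1 rose by 0.67 (SE 0.13) and GADD45GIP1 by 0.63 (SE 0.18), both with shPIWIL4 library 1 above library 2, and the call of GADD45GIP1 was lost with library totals and with no count filter. Without shPIWIL4 library 1 they were at 0.44 for AURKAIP1 and 0.31 for GADD45GIP1. ICT1, CHCHD1 and PTCD3 did not pass.

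Of 17 mitochondrial translation factors 14 rose (82.4%, against 28.7% of all tested genes) and none fell, with a median of 0.42. GFM1, the elongation factor that moves the ribosome along the mRNA, had 100 and 112 CPM in shPIWIL4 and 61.4 and 60.0 CPM in Scrambled, and rose by 0.81 (SE 0.09). TUFM, which brings the aminoacyl-tRNA, rose by 0.74 (SE 0.08), and TACO1, an activator of COX1 translation, by 0.67 (SE 0.11).

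Among 25 genes of mitoribosome assembly and rRNA modification, 11 rose and 3 fell, with a median of 0.21. MPV17L2, an inner membrane protein needed for assembly, had 15.5 and 13.9 CPM in shPIWIL4 and 7.84 and 8.35 CPM in Scrambled, and rose by 0.86 (SE 0.11). TRUB2, linked to pseudouridine formation in mitochondrial RNA, and FTSJ2, an rRNA methyltransferase also called MRM2, rose by 0.60 and 0.57. The 3 that fell included NSUN4, with 43.4 and 46.4 CPM in shPIWIL4 and 65.5 and 61.6 CPM in Scrambled, and its partner MTERF4, with 30.7 and 34.5 CPM in shPIWIL4 and 47.5 and 44.5 CPM in Scrambled. Each fell by 0.50 on the log2 scale. Their proteins form a complex that brings both subunits together at the end of assembly. YBEY, an endoribonuclease, fell by 0.88 (SE 0.16) at a low level of 2.94 and 3.62 CPM in shPIWIL4 and 6.71 and 5.49 CPM in Scrambled.

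Of 15 genes for mitochondrial transcription and nuclear regulators, 7 rose and 1 fell, with a median of 0.39. These are 46.7% and 6.67%, against 28.7% and 29.1% of all tested genes. The coactivators PPARGC1A and PPARGC1B, which drive mitochondrial biogenesis in many tissues, rose by 1.55 (SE 0.15) and 1.25 (SE 0.09). PPARGC1A was low, with 7.12 and 8.45 CPM in shPIWIL4 and 2.68 and 2.65 CPM in Scrambled, and PPARGC1B had 47.6 and 49.7 CPM in shPIWIL4 and 20.6 and 20.5 CPM in Scrambled. Their nuclear receptor partner ESRRA had 71.1 and 55.0 CPM in shPIWIL4 and 22.9 and 28.1 CPM in Scrambled, and rose by 1.30 (SE 0.14). The other genes called higher were TFB2M, TEFM, GABPB2 and PPRC1, at 0.49, 0.59, 0.73 and 0.55. Without a call were, among others, NRF1 at -0.06, GABPA at 0.14 and GABPB1 at -0.18. YY1 fell by 0.26 (SE 0.09, adjusted p 0.031), a call lost with a replicate block, with no count filter and without either Scrambled library.

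Protein import, which brings the ribosomal proteins into the matrix, went the same way. Of 27 genes 19 rose and 2 fell, with a median of 0.45. These are 70.4% and 7.41%, against 28.7% and 29.1% of all tested genes. TIMM21 rose by 0.97, TIMM44, which tethers the import motor, by 0.89, and TOMM70A, a receptor of the outer membrane, by 0.69. TOMM34 and TOMM20 fell by 0.37 and 0.27, and both calls were lost without Scrambled library 1, that of TOMM20 also in other settings.

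Set beside 2 related groups of genes, the mitochondrial ribosome lay between them. Of 77 nuclear-encoded subunits of the respiratory chain and ATP synthase 71 rose and none fell, with a median of 0.67. The share called higher was 92.2%, against 28.7% of all tested genes. The summed TPM of the mitochondrial ribosomal protein genes was 0.224 and 0.217 of that of the respiratory subunits in shPIWIL4, against 0.259 and 0.267 in Scrambled. NDUFB10 and NDUFB9 of complex I and COX7C of complex IV had the smallest p, with 1.17, 1.28 and 1.57 on the log2 scale.

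The cytosolic ribosomal proteins ran the other way. Of 77 tested, 75 fell (97.4%, against 29.1% of all tested genes) and 1, RPS26, rose, with a median of -0.73. RPL15 had 735 and 735 CPM in shPIWIL4 and 1576 and 1589 CPM in Scrambled. The summed TPM of the mitochondrial over the cytosolic ribosomal protein genes was 0.0342 and 0.0334 in shPIWIL4 and 0.0152 and 0.0157 in Scrambled, a ratio about 2 times as high in both knockdown libraries. No test of the difference between these lists was made, their calls come from the same 4 libraries, and cytosolic ribosomal protein counts are uncertain because of their many pseudogenes.

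**Figure D5:**
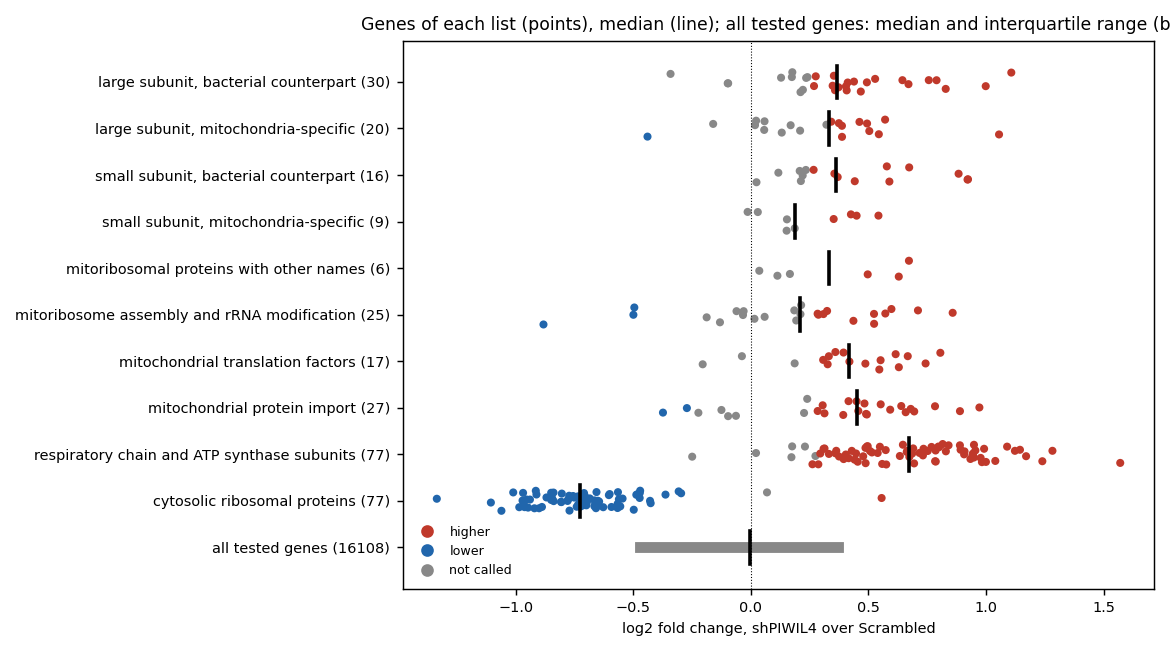
Log2 fold change, shPIWIL4 over Scrambled, of the tested genes of each list (points coloured by call, number tested in brackets), with the median as a black line; the bottom row gives the median and the interquartile range of all 16108 tested genes. The 4 mitoribosomal classes have medians from 0.19 to 0.37, below the 0.67 of the respiratory chain and above the -0.73 of the cytosolic ribosomal proteins.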

How the data were processed

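RNA-seq of THP-1 cells was compared between 2 shPIWIL4 and 2 Scrambled libraries. Per the submitters' processing notes, reads were handled with STAR, featureCounts and DESeq2 on hg19. Versions of the tools, the annotation and strandedness were not given in the sources used here. Each library's deposited table holds raw counts per gene, and the authors derived FPKM and TPM values from them. FPKM served to recover gene lengths and TPM to compare levels between genes. Names of 28 rows had become dates; they were tested and not named.

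The test was edgeR 4.0.16 (R 4.3.3) on the counts (filterByExpr, minimum count 10, minimum total 15; TMM; robust quasi-likelihood F test; group as the only term), with Benjamini-Hochberg adjustment over 16108 genes. Genes were called at an adjusted p under 0.05. The SE is the size of the log2 fold change over the root of F, and CPM are TMM-scaled. Another 4634 detected genes were not tested and 4938 were at 0. Scripts were tested on simulated data. DESeq2 1.42.0 was an alternative.

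Whether the libraries are separate cultures is not stated, so p-values cover only the spread among these 4 samples, possibly technical. Chi-square per gene between replicates was 27.9 in shPIWIL4 and 7.89 in Scrambled, more than sampling noise. Members and lists were chosen with earlier results of these data known. The named genes are PIWIL4, the 8 largest increases and all decreases among called members, the 3 smallest p of each class, members not called or not tested, MRPS36, the 3 highest and 3 lowest in TPM, and up to 3 called genes of each other list with the smallest p, plus those against its majority. MRPL33, MRPL11 and a few others were named for their role or position. Neighbours, GC content and pseudogenes come from GENCODE v29 and promoters from RefSeq, both on GRCh38, and no coordinate was carried over to hg19.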

Additional observations from a re-analysis of the deposited data

How the results depend on the processing

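In all 16 alternatives the set kept a positive median and more genes higher than lower, and 30 genes were called higher in every one. Outside the fits that left out a library, 35 to 61 genes were higher. The number of all tested genes called higher moved too. It was 3446 with upper-quartile factors, which gave the 35, and 5728 with the crossed block, which gave the 61. The number lower was 2 with library totals, DESeq2, a minimum count of 100, a replicate block, a length offset, a length offset with the block and a length and GC offset with the block, and 3 with upper-quartile factors, the crossed block and the length and GC offset. MRPL33 was the gene most often added, lower in 12 of 17 settings. The upper-quartile median was 0.23. Leaving out 1 library gave 33 to 54 higher, 0 to 3 lower and medians of 0.30 to 0.38. The cause of these shifts was not tested.

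The deviations of same-numbered libraries had a correlation of -0.31, and the labels do not say that a number marks a shared batch or day, so no pairing was used and whether one existed was not settled. With the replicate block 39 rose and 2 fell, with the median at 0.35, and over all tested genes 3921 rose and 4197 fell. The crossed pairing, chosen after seeing the data, gave 61 and 3, and over all tested genes 5728 and 5641.

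Signs reversed only for genes that were not called with TMM and group alone. Not all of them lay near 0, and MRPL28 and MRPL55 reversed only without shPIWIL4 library 1. With upper-quartile factors MRPS14 was at -0.00578, MRPS18A -0.0638, MRPL52 -0.0652, MRPS25 -0.0930, MRPS5 -0.0990, MRPL54 -0.0988 and MRPL39 -0.105. With library totals MRPS25 was at -0.0176, MRPS5 -0.0240, MRPL54 -0.0230 and MRPL39 -0.0294. A minimum count of 100 gave MRPS25 -0.0150, MRPS5 -0.0208, MRPL54 -0.0218 and MRPL39 -0.0269, and no filter gave MRPS31 0.0228. A length offset gave MRPL54 -0.0240 and MRPL39 -0.0218, and with the replicate block -0.0263 and -0.0219. A length and GC offset gave MRPL52 -0.0369, MRPS5 -0.0109 and MRPL39 -0.0894, and with the replicate block -0.0383, -0.0121 and -0.0905. Leaving out a library, MRPS31 ranged from -0.125 to 0.108, MRPS5 from -0.0782 to 0.134, MRPL39 from -0.0755 to 0.139, MRPL28 from -0.0169 to 0.356, MRPL55 from -0.0516 to 0.294, MRPL54 from -0.0800 to 0.129 and MRPS25 from -0.0139 to 0.0864.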
